A study of Mus musculus with 15 samples.

Results

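The expression of 10 imprinted growth-control genes was examined in vascular cells of mouse melanoma. The genes were *Cdkn1c*, *H19*, *Igf2*, *Meg3*, *Dlk1*, *Peg3*, *Mest*, *Plagl1*, *Ndn* and *Grb10*, chosen by name, and all 10 were found among the 53465 genes of the deposited table. The table holds 15 RNA sequencing libraries, 5 each from endovascular progenitor (EVP), transit amplifying (TA) and definitive differentiated (D) cells. All cells came from tumors grown from B16-F0, a mouse melanoma cell line, in CAG-GFP mice and collected on day 15, and no other allele, agent or treatment was given for any population. Mice of both sexes aged 8 to 14 weeks were used in the study. The CAG promoter is active in nearly every cell, so GFP separates host cells from tumor cells but does not mark endothelium. Within the GFP+ cells that lacked hematopoietic lineage markers and carried CD34, EVP cells had low CD31 and low VEGFR2, TA cells intermediate CD31 and low VEGFR2, and D cells high levels of both. The sources used here do not state whether libraries with the same number came from the same animals or how many animals gave each library, so p-values measure the spread between these libraries.

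Genomic imprinting silences the copy of a gene inherited from either the mother or the father, through methylation of CpG sites laid down in the germ line. Imprinted genes lie in clusters and include both promoters and restrainers of growth. *Igf2*, *Peg3*, *Mest*, *Plagl1*, *Ndn* and *Dlk1* are expressed from the paternal copy, and *H19*, *Meg3*, *Cdkn1c* and, in most tissues, *Grb10* from the maternal copy. Several are abundant in the fetus and low in most adult tissue. The libraries here do not separate the parental copies, so each value is the sum of both.

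In these cells 6 of the genes were higher in EVP than in D. *Meg3* differed 70.3-fold, *H19* 50.0-fold, *Ndn* 45.8-fold, *Cdkn1c* 14.9-fold, *Plagl1* 7.13-fold and *Peg3* 2.92-fold. *Mest* ran the other way, 48.1-fold higher in D than in EVP. *Grb10* was abundant in all 3 populations and lowest in TA, *Dlk1* was low and uneven, and *Igf2* was listed at or near 0 in every library. The level of *Igf2* could not be read here, as 62.8% of its exon bases are shared on the same strand with another gene model. Of the 10 genes, 9 had a mean of at least 5 normalized counts and were tested. A normalized count is a count of reads on a gene divided by the authors' size factor for the library.

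Comparing EVP with D, 7 of the 9 genes passed an adjusted p of 0.05 (limma), 6 with more in EVP and 1 with more in D. Over the whole table, 19% of the 25549 genes tested passed, 11.6% with more in EVP and 7.46% with more in D. For 6 of the 9, no EVP library overlapped any D library (5 above D, 1 below), and this held for 17.7% of all tested genes (10.2% above, 7.52% below). Comparing EVP with TA, 4 of the 9 passed, 3 with more in EVP and 1 with more in TA, beside 3.5% of the whole table (1.56% with more in EVP, 1.94% with more in TA). Here 3 of the 9 had no overlap (2 above TA, 1 below), beside 4.29% of the table (2.7% above, 1.59% below). Comparing TA with D, 6 passed, 4 with more in TA and 2 with more in D, beside 12.5% of the table (8.21% with more in TA, 4.31% with more in D). There 5 had no overlap (4 above D, 1 below), beside 9.25% of the table (5.56% above, 3.69% below). The median log2 fold change of the 9 genes was 3.21 between EVP and D, 1.64 between EVP and TA and 2.36 between TA and D, and over all tested genes it was 0.46, 0.09 and 0.24. Without replicate 1 of every population, which stood apart in quality, 7, 2 and 7 of the 9 passed in the same order of comparisons. The 3 comparisons share libraries and are not independent of each other. The genes were chosen with earlier results of these data known, so the shares are descriptions and not a test of the set.

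**Figure D1:**
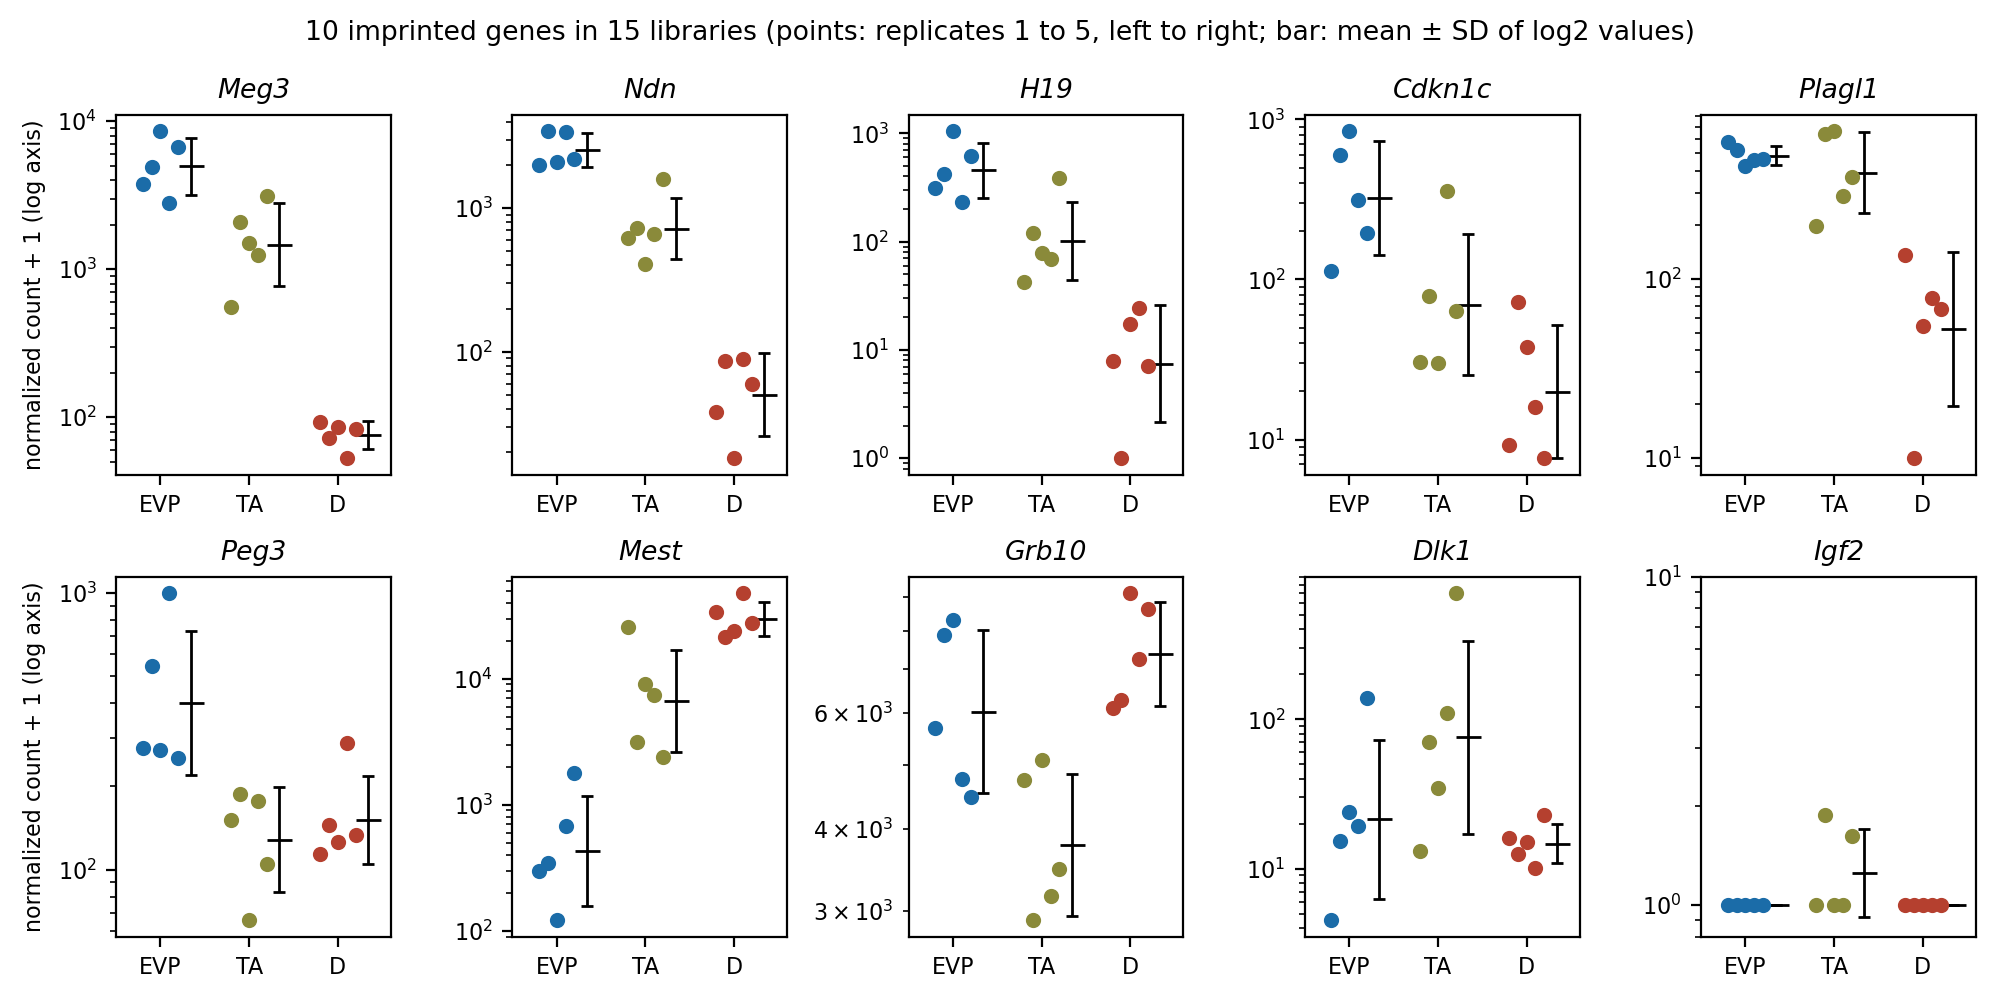
Normalized counts plus 1 of the 10 genes (log axis) in each of the 5 EVP, 5 TA and 5 D libraries, with replicates 1 to 5 from left to right and the mean ± SD of the log2 values as a black bar. The D libraries of *Meg3*, *Ndn* and *H19* lie below every EVP and TA library, those of *Mest* lie above every EVP library, and *Igf2* has 1 read in 2 TA libraries and none elsewhere.

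The libraries were not alike in quality or in cell content. Each library held 5394356 to 26513073 reads counted on genes (median 19049194), and 3 reads, used as a floor, equalled 1.81 to 10.5 normalized counts (counting error only). The replicate 1 libraries stood apart by their reads on 1106 olfactory receptor genes. Of these genes, 81.6% to 98.3% had a read in the replicate 1 libraries, beside 2.89% to 71.0% in the other 12 libraries. Over the marker genes of each cell type, endothelial genes summed to 2318 to 3891 normalized counts in EVP, 2206 to 60812 in TA and 85605 to 133817 in D, and 9 of 10 were higher in D than in EVP. *Pecam1* and *Kdr*, which encode the sorting markers CD31 and VEGFR2, are 2 of these 10. Fibroblast genes summed to 847250 to 1505581 in EVP, 192799 to 611636 in TA and 1167 to 4252 in D, and all 10 were higher in EVP and in TA than in D. Melanoma genes were present in every population, at summed values of 29776 to 67410 in EVP, 69334 to 176152 in TA and 18213 to 47920 in D, and keratinocyte genes summed to 1673 to 8976, 2066 to 79434 and 84.1 to 2856. The EVP label was therefore carried by libraries with few endothelial and many fibroblast transcripts. The part of cell content in the differences below was not tested, and marker sums are only set beside some of the genes. In bulk libraries, fewer cells of a type and less RNA per cell cannot be told apart.

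The sequences in front of 3 of the start sites differ in CpG content. They were not chosen as the regions that carry the imprint, and whether they overlap such regions was not examined. They are those of the gene with the highest level in D (*Mest*), of the gene with the largest fold change higher in EVP (*Meg3*) and of the gene abundant in every population (*Grb10*). Each holds the 250 bases before a RefSeq transcription start (GRCm38.p6), 5′ to 3′ on the strand of the gene, with every CG in capitals. RefSeq starts were matched for 8 of the 10 genes, and of the starts of a gene without exon bases in the window, the window with the most CG is shown.
Mest, chr6:30737800-30738049, plus strand: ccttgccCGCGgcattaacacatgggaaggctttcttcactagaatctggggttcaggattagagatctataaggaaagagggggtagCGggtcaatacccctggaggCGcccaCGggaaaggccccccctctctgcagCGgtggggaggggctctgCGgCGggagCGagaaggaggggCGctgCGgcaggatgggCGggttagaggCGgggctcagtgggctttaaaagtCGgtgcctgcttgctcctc
Meg3, chr12:109540746-109540995, plus strand: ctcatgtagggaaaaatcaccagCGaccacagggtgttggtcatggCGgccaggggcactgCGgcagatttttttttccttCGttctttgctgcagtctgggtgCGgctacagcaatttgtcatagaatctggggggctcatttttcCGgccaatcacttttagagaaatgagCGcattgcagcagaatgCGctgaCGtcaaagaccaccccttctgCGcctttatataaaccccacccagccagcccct
Grb10, chr11:12037421-12037670, minus strand: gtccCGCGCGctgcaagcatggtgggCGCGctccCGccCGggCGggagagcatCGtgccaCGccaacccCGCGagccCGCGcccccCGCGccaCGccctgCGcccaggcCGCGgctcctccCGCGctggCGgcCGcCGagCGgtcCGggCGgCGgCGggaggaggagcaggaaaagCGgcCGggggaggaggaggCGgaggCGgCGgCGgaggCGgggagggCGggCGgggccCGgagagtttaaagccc
The *Grb10* window held 40 CG, a number that 1.31% of 32851 windows of RefSeq starts reached, with a median of 6. The window of another *Grb10* start held 8 CG, which 43.0% of windows reached. The *Mest* window held 14, a number that 29.4% of windows reached, and the *Meg3* window 10, which 37.8% reached. The letters TATAAA, the core of a TATA box, occurred 2 times in the *Meg3* window, 1 on each strand and overlapping each other, in neither of the other windows, and in 12.4% of all windows, searched on both strands. The motif GGGGCCCC, the core of the site bound by the protein that *Plagl1* encodes, was in none of these 3 windows and in 0.889% of all windows, searched on both strands. Among the windows of the other matched genes it occurred in that of *Peg3*, in which 104 bases are exon bases. These matches are descriptions of the letters, and no methylation or binding was measured in these cells.

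*Meg3* (chr12:109541001-109571726, plus strand, GRCm38) encodes a long noncoding RNA of the *Dlk1*-*Dio3* cluster. It was at 3788, 4930, 8581, 2793 and 6735 normalized counts in EVP replicates 1 to 5, at 553, 2069, 1510, 1249 and 3120 in TA, and at 92.0, 71.0, 84.4, 51.8 and 82.2 in D. Every D library lay below every other library, and EVP and TA overlapped only between EVP replicate 4 and TA replicate 5. The means were 5366 ± 2319 in EVP, 1700 ± 963 in TA and 76.3 ± 15.6 in D (SD, n = 5 libraries each). The log2 fold change was 6.03 ± 0.38 (SE) between EVP and D, with a limma adjusted p of 4.94e-09, and 4.27 between TA and D, with an adjusted p of 8.04e-07. Between EVP and TA it was 1.76, with an adjusted p of 0.0165 that became 0.0545 without EVP replicate 3. Of the exon bases of *Meg3*, 6.79% are shared with *Gm26906* on the other strand, which had no read.

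The maternally expressed noncoding RNAs beside *Meg3* in the cluster ran the same way. *Rian* was at 1889, 1041, 1623, 468 and 1019 normalized counts in EVP, and at 312, 8.16, 7.82, 11.3 and 30.2 in D. The D library with the high value was replicate 1, which also had reads on 89.2% of olfactory genes. The log2 fold change of *Rian* between EVP and D was 5.45 ± 0.79, with an adjusted p of 5.33e-05. *Mirg*, a microRNA host transcript, averaged 89.9 ± 26.2 in EVP and 3.23 ± 5.96 in D and had no read in D replicates 2, 3 and 4 and 13.7 in D replicate 1 (log2 fold change 5.32, adjusted p = 8.74e-05, limma). The paternally expressed coding genes of the cluster were lower in level. *Dio3*, which encodes an enzyme that inactivates thyroid hormone, averaged 65.1 ± 34.7 in EVP and had 1 read in all of D, so that EVP was at least 25.1-fold higher than the mean of a floor of 3 reads in each D library (adjusted p = 7.98e-05, limma). *Rtl1*, derived from a retrotransposon, averaged 24.4 ± 18 in EVP, and D replicate 1 with 20.6 was the only D library with a read (adjusted p = 0.0363, limma).

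*Dlk1* (chr12:109452823-109463336, plus strand), which encodes a membrane protein related to Notch ligands, did not share this pattern. It was at 3.51, 14.4, 22.9, 18.4 and 138 normalized counts in EVP, at 12.1, 69.4, 33.5, 109.7 and 701 in TA, and at 15.1, 11.4, 14.1, 9.01 and 21.8 in D. The highest values came from replicate 5 of TA and of EVP, and the populations overlapped. In replicate 1 of each population the value was below the mean over olfactory genes of that library (127 in EVP, 28.9 in TA and 21.0 in D). limma put the log2 fold change at 0.54 ± 0.94 between EVP and D (adjusted p = 0.788), -1.82 between EVP and TA (adjusted p = 0.384) and 2.36 between TA and D (adjusted p = 0.126). The last passed the threshold with edgeR (adjusted p = 0.0455), with DESeq2 (0.00165), with array weights (0.00771) and without TA replicate 1 (0.0355), and leaving out replicate 1 of every population gave 0.0267. The sign between EVP and D turned without EVP replicate 5 (log2 fold change -0.14) and after quantile normalization (-0.45). Markers of mural cells, the pericytes and smooth muscle cells around vessels, summed to 156963 normalized counts in TA replicate 5 and 34433 in EVP replicate 5, the highest of each population, and to 5212 to 10888 in D. Of these 9 genes, 2 were higher in TA than in EVP and 6 higher in TA than in D, beside 1.94% and 8.21% of all tested genes. Between EVP and D, 4 were higher in EVP and 2 in D, beside 11.6% and 7.46%. *Rgs5*, 1 of the 9, averaged 2952 in EVP, 26989 in TA and 2161 in D. The 5 TA libraries had the same order by *Dlk1* and by the mural sum (replicates 5, 4, 2, 3 and 1, from high to low). Within EVP and within D the orders by *Dlk1* and by the mural sum differed.

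*H19* (chr7:142575529-142578143, minus strand) is a maternally expressed noncoding RNA that lies next to *Igf2*. It was at 312.5, 422, 1051, 233 and 611 normalized counts in EVP, at 41.4, 120.4, 77.0, 68.2 and 385 in TA, and at 6.86, 0, 16.4, 23.3 and 6.04 in D. The D libraries lay below all others, while TA replicate 5 reached into the range of EVP. Its log2 fold change was 5.93 ± 0.76 between EVP and D, with a limma adjusted p of 1.56e-05, and 3.76 ± 0.76 between TA and D, with an adjusted p of 0.00290 (0.0605 after quantile normalization). For EVP against TA it was 2.17 ± 0.76 and did not pass the threshold (adjusted p = 0.146, and 0.0383 with a pseudocount of 8).

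*Igf2* (chr7:142650766-142666816, minus strand), the fetal insulin-like growth factor, was listed at 0 in 13 of the 15 libraries and at 1 read in TA replicates 2 and 5, and it was not tested. Its level cannot be read from this table. Of its 5723 exon bases, 3596 (62.8%) are shared on the same strand with another gene model, *AC013548.1*, also at 0 in every library, and HTSeq-count by default leaves out reads that fall on more than 1 gene. Among 9 genes for the receptors, relays and RNA-binding proteins of IGF2, 4 were higher in EVP than in D and 2 were higher in D, with a median log2 fold change of 1.87. Of the genes tested, 11.6% passed with more in EVP and 7.46% with more in D, and the median over all of them, passed or not, was 0.46. *Irs1* and *Irs2*, docking proteins below the insulin and IGF receptors, averaged 150.3 ± 65.1 and 215 ± 97.9 in EVP beside 6.63 ± 12.4 and 5.09 ± 3.11 in D (log2 fold changes 5.33 and 5.16, adjusted p = 6.13e-04 and 1.23e-06, limma). The *Irs1* mean in D came mostly from D replicate 1, at 28.8 beside at most 1.5 in the other 4. *Igf2bp2*, which encodes a protein that binds the *Igf2* mRNA, averaged 273 ± 89.0 in EVP and 9.59 ± 8.78 in D (log2 fold change 5.04). *Insr*, the insulin receptor, was 4.54-fold higher in D (adjusted p = 0.00808), and the receptors *Igf1r* and *Igf2r* did not pass the threshold in this comparison. Between TA and D, *Irs1*, *Irs2*, *Igf2bp2* and *Igf2bp3* were higher in TA and *Insr* was higher in D, beside 8.21% and 4.31% of all tested genes. None of the 9 passed between EVP and TA, beside 3.5% of all tested genes.

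*Cdkn1c* (chr7:143458339-143461050, minus strand) encodes a cyclin-dependent kinase inhibitor that holds back the cell cycle. It was at 112.4, 598, 845, 314 and 193 normalized counts in EVP, at 29.3, 78.2, 29.0, 355 and 62.3 in TA, and at 8.24, 71.8, 36.7, 15 and 6.65 in D. No EVP library overlapped D, and TA replicate 4 lay within the EVP range while the other 4 lay below it. In EVP replicate 1 the mean over olfactory genes was 127, above the value of *Cdkn1c* there, and without replicate 1 of every population EVP differed from D by a log2 fold change of 4.12 (adjusted p = 0.00190), beside 4.02 ± 0.76 (adjusted p = 7.99e-04) with it. Neither EVP and TA (log2 fold change 2.22 ± 0.76, adjusted p = 0.137) nor TA and D (1.81 ± 0.76, adjusted p = 0.152) passed the limma threshold. The former passed without TA replicate 4 (adjusted p = 0.0466), and the latter passed with limma array weights, which give less weight to libraries that vary more (log2 fold change 2.76, adjusted p = 0.0140). Summed cell cycle genes ranged from 8613 to 20336 normalized counts in EVP, 20186 to 30605 in TA and 18545 to 29885 in D. Of these 10 genes, 3 passed between EVP and D, all with more in D, beside 7.46% of all tested genes. Of the exon bases of *Cdkn1c*, 30.7% are shared with *Gm44732* on the other strand, which had no read. If strand was ignored in counting, reads on the shared bases were by default left out of both, so the level of *Cdkn1c* could be understated.

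The neighbors of *Cdkn1c* did not move together. *Kcnq1*, which encodes a potassium channel subunit, averaged 24.7 ± 14.4 in EVP, 646 ± 633 in TA and 1846 ± 428 in D. It differed 74.7-fold, in the opposite direction to *Cdkn1c*, and no EVP library overlapped D (log2 fold change -6.41 ± 0.65, adjusted p = 1.17e-06, limma). It also passed between EVP and TA (adjusted p = 0.00242) and between TA and D (adjusted p = 0.0408). *Kcnq1ot1*, the paternally expressed noncoding RNA that silences the cluster, was at 5154 in EVP replicate 1, at 857 to 1604 in the other 4 EVP libraries and at 494 to 1582 in D, and did not pass (adjusted p = 0.200). *Slc22a18*, which encodes a transporter, was higher in EVP than in D (adjusted p = 0.00320), at 44.9 to 137 in EVP, at 53.2 in D replicate 3 and at 2.45 to 9.07 in the other 4 D libraries.

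*Ndn* (chr7:62346569-62350262, plus strand) encodes necdin, a growth suppressor of the MAGE family. It was at 2008, 3446, 2085, 3398 and 2215 normalized counts in EVP, at 622, 732, 406, 659 and 1586 in TA, and at 37.1, 84.9, 17.2, 88.6 and 59.2 in D. The 3 populations did not overlap at all. The log2 fold change was 5.67 ± 0.41 between EVP and D, with a limma adjusted p of 2.58e-08, and 3.84 ± 0.41 between TA and D, with an adjusted p of 6.58e-06. Between EVP and TA it was 1.83 ± 0.41 with an adjusted p of 0.0201, which rose over the threshold with edgeR (0.0511), with array weights (0.0546), without EVP replicate 2 (0.0692) or 4 (0.0553), without TA replicate 3 (0.0587) and without replicate 1 of every population (0.0680). Other genes of its cluster, *Snrpn*, *Ube3a*, *Mkrn3* and *Peg12*, did not pass between EVP and D.

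*Plagl1* (chr10:13060504-13131694, plus strand) encodes a zinc finger transcription factor that acts on other imprinted genes. It was at 572, 523, 421, 455 and 461 normalized counts in EVP, at 196, 636, 663, 288 and 366 in TA, and at 134.5, 8.98, 53.2, 77.4 and 67.1 in D. The D libraries lay below all others, and EVP and TA overlapped. limma put the log2 fold change at 3.21 ± 0.53 between EVP and D, with an adjusted p of 2.15e-04, and 2.89 ± 0.53 between TA and D, with an adjusted p of 0.00133. For EVP against TA it was 0.32 ± 0.53, and the difference did not pass (adjusted p = 0.919).

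*Peg3* (chr7:6703892-6730431, minus strand), another zinc finger gene, was at 274, 542, 269, 997 and 252 normalized counts in EVP, at 150.0, 187, 64.7, 176 and 104.0 in TA, and at 113, 144, 125, 285 and 133 in D. Every EVP library was above every TA library, and EVP overlapped D only through D replicate 4. Its log2 fold change was 1.40 ± 0.41 between EVP and D (adjusted p = 0.0230, limma) and 1.64 ± 0.41 between EVP and TA (adjusted p = 0.0355). Both calls were lost under several alternatives. Between EVP and D the adjusted p was 0.148 after quantile normalization and 0.0510 to 0.0739 without EVP replicate 2 or 4 or D replicate 1, 3 or 5. Between EVP and TA the call was lost in 12 of 27 alternatives. The adjusted p was 0.0509 with edgeR, 0.0536 with the same total per library, 0.0598 without a filter on low values, 0.0606 with array weights and 0.0704 with only EVP and TA fitted. It was 0.0510 to 0.109 without EVP replicate 2, 3 or 4 or TA replicate 1, 3 or 5, and 0.0634 without replicate 1 of every population. TA and D did not pass (log2 fold change -0.24 ± 0.41, adjusted p = 0.812). *Zim1*, the maternally expressed gene next to *Peg3*, was higher in EVP than in D (adjusted p = 0.0117), at 84.3, 32.7, 23.7, 49.6 and 6.91 in EVP and at 6.86, 2.45, 0, 0 and 0 in D. Replicate 1 was the highest library of both populations, and *Usp29*, which shares the promoter region of *Peg3*, did not pass (adjusted p = 0.914).

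*Mest* (chr6:30723547-30748465, plus strand) encodes an enzyme of the alpha/beta hydrolase family. It was at 295, 345, 120.3, 675 and 1787 normalized counts in EVP, at 25626, 3119, 9067, 7476 and 2402 in TA, and at 33694, 21282, 24112, 47847 and 27918 in D. All EVP libraries lay below all TA libraries, and of TA only replicate 1 reached the range of D. The means were 644 ± 669 in EVP, 9538 ± 9426 in TA and 30971 ± 10517 in D. The log2 fold change was -6.10 ± 0.63 between EVP and D (adjusted p = 1.43e-06, limma) and -3.95 ± 0.63 between EVP and TA (adjusted p = 0.00333). Between TA and D it was -2.16 ± 0.63 with an adjusted p of 0.0316, which rose to 0.126 with edgeR, 0.119 with DESeq2, 0.0507 after quantile normalization and 0.0514 without a filter on low values. It also lost the threshold without TA replicate 2 (0.0835) or 5 (0.0858) and without D replicate 1 (0.0519), 3 (0.0513), 4 (0.0857) or 5 (0.0598). *Copg2*, a coat protein gene that shares 23.1% of the exon bases of *Mest* on the other strand, averaged 547 ± 125 in EVP and 997 ± 179 in D (log2 fold change -0.88, adjusted p = 0.0251). If strand was ignored in counting, reads on the shared bases were by default left out of both genes.

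*Mest* and *Meg3* moved in opposite directions over the libraries. The ratio of *Mest* to *Meg3* normalized counts was 0.0140 to 0.265 in EVP and 286 to 923 in D, and in TA replicates 1 to 5 it was 46.3, 1.51, 6.0, 5.99 and 0.770. The 5 TA libraries had the same order by *Mest* as by the endothelial marker sum (replicates 1, 3, 4, 2 and 5, from high to low). They had the same order by *Meg3*, by *H19* and by the fibroblast marker sum (replicates 5, 2, 3, 4 and 1), and *Ndn* was also highest in replicates 5 and 2. *Cdkn1c*, *Plagl1*, *Peg3* and *Grb10* followed neither order. Within EVP and within D, *Mest* did not follow the order of the endothelial sum. *Meg3* and *H19* did not follow that of the fibroblast sum there. In EVP, *Meg3* and *H19* were highest in replicate 3 and the fibroblast sum in replicate 2. TA replicate 5 had an endothelial sum (2206) below every EVP library (2318 to 3891), but *Mest* (2402) above every EVP library (120.3 to 1787). All these orders rest on 5 libraries each and are given without a test.

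**Figure D2:**
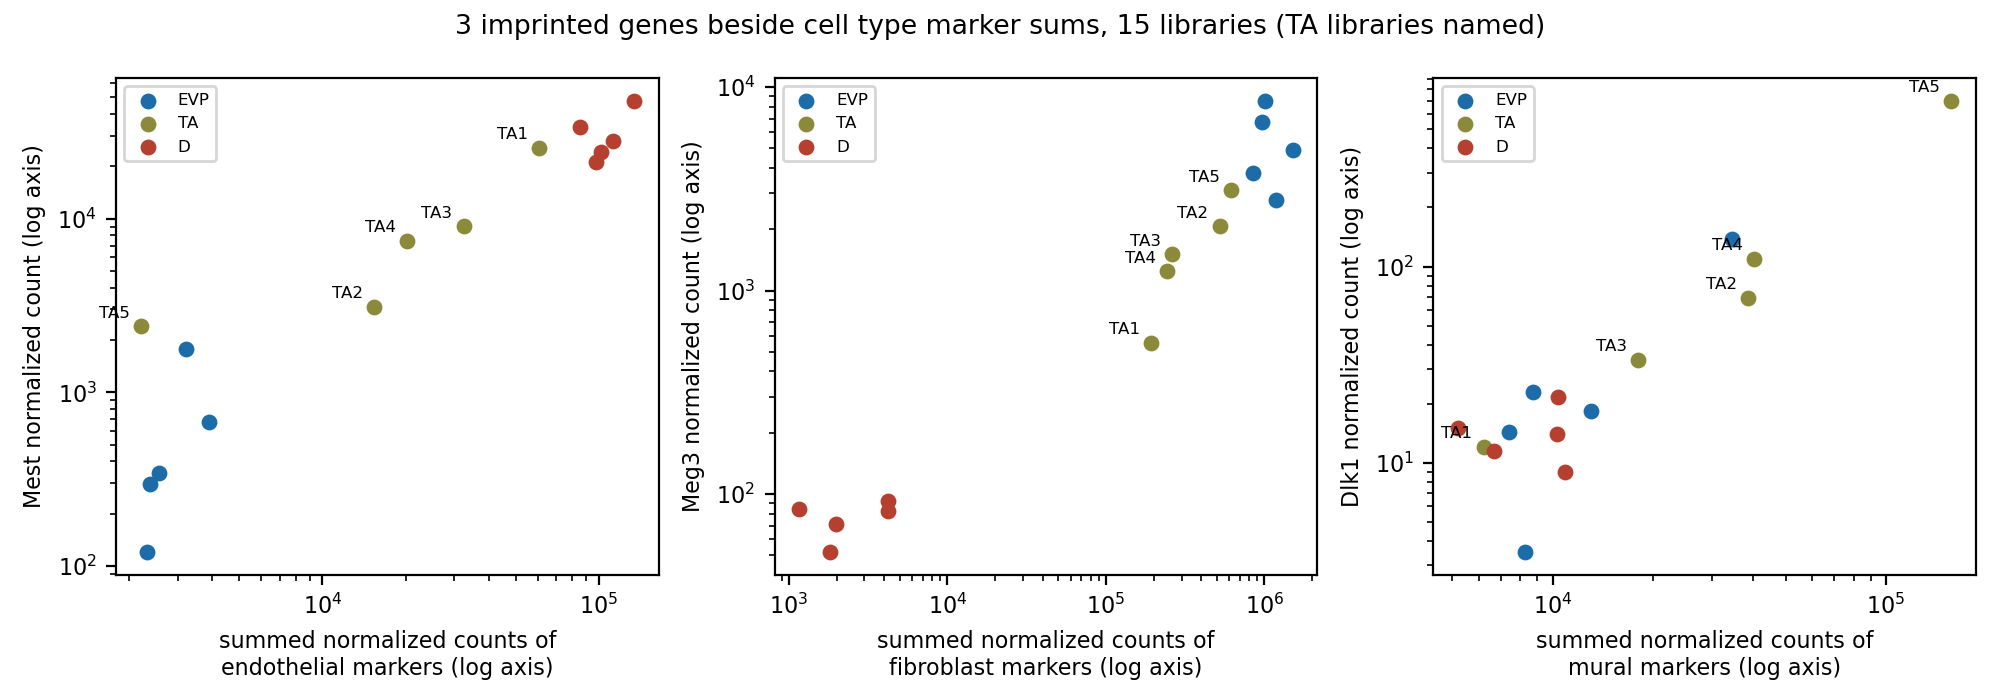
Normalized counts of *Mest*, *Meg3* and *Dlk1* (log axis) against the summed normalized counts of endothelial, fibroblast and mural marker genes (log axis), with 1 point per library and the TA libraries named. TA libraries run from 2402 to 25626 for *Mest* in the order of their endothelial sums. TA replicate 5 lies below every EVP library by endothelial sum (2206) but above every EVP library by *Mest* (2402). It also has both the highest *Dlk1* (701) and the highest mural sum (156963).

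*Grb10* (chr11:11930508-12038683, minus strand) encodes an adaptor that binds insulin and IGF receptors and dampens their signal. It was at 5695, 7887, 8309, 4763 and 4471 normalized counts in EVP, at 4733, 2900, 5092, 3155 and 3474 in TA, and at 6096, 6277, 9128, 7248 and 8621 in D. Every TA library lay below every D library, and EVP overlapped both. limma put the log2 fold change at -0.97 ± 0.21 between TA and D (adjusted p = 0.00436), 0.67 ± 0.21 between EVP and TA (adjusted p = 0.0884, and 0.0244 with DESeq2) and -0.29 ± 0.21 between EVP and D (adjusted p = 0.439). *Ddc*, its neighbor, which encodes an enzyme of dopamine and serotonin synthesis, was 5.43-fold higher in EVP than in D (adjusted p = 0.00322), and no EVP library overlapped D.

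**Figure D3:**
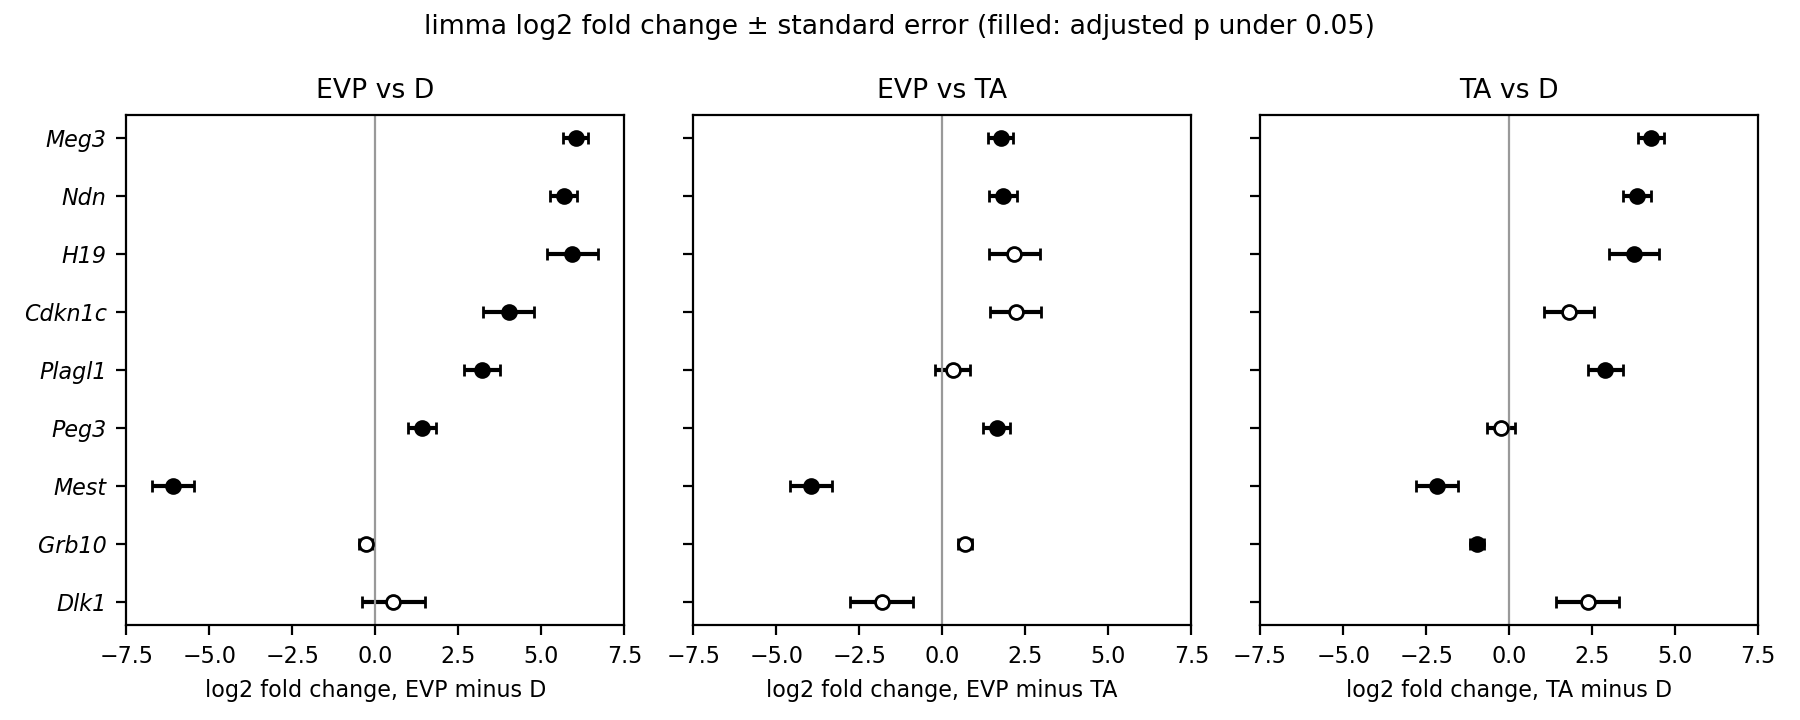
Log2 fold changes ± SE (limma, 5 libraries per population) of the 9 tested genes in the 3 comparisons, with filled points for an adjusted p under 0.05. *Mest* is the only filled point left of 0 between EVP and D, at -6.10, and *Grb10* is filled only between TA and D, at -0.97.

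On the log2 scale the TA mean stood at different points between those of EVP (0) and D (1). It was 0.0989 of the way for *Plagl1*, 0.292 for *Meg3*, 0.322 for *Ndn*, 0.366 for *H19*, 0.551 for *Cdkn1c*, 0.646 for *Mest* and, beyond D, 1.17 for *Peg3*. Levels per kilobase of exon sequence placed different genes first in each population. In EVP *Ndn* (712 normalized counts per kilobase) and *Grb10* (685) came first, with overlapping ranges, followed by *Meg3* at 297. In D *Mest* came first at 7851 per kilobase, ahead of *Grb10* at 822 with no overlap, and the next gene, *Ndn*, was at 15.5. In TA the order was *Mest* at 2418, *Grb10* at 426 and *Ndn* at 217, and the ranges of *Grb10* and *Ndn* overlapped. Below *Ndn* in D, each neighbor in the order overlapped the next down to *Dlk1* at 2.52.

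Genes with the most similar pattern were found for each gene by the root mean square difference of centered log2 values over the 15 libraries, where 0 means the same pattern. *Mest* was closest to *Flt1* (0.449), *Angpt2* (0.532) and *Sh2d3c* (0.538), the first 2 being a VEGF receptor and a ligand of the Tie2 receptor. *Ndn* was closest to *Sulf1* (0.377), *Steap3* and *Rbms3* (0.534 each). *Meg3* was closest to *Gm27000* (0.495), *Efemp2* (0.504) and *Loxl3* (0.537), the last 2 acting in the extracellular matrix. *Dlk1* was closest to *Tusc5* (0.641), *Rgs5* (0.672), a pericyte marker that is also part of the mural sum, and *Gjc1* (0.774). *Plagl1* was closest to *Cox7a1* (0.517), *Cyp2u1* (0.567) and *Nr1h4* (0.574), and *Peg3* to *Lamb2* (0.449), *Zfp36l1* (0.467) and *Ace* (0.473). *Grb10* was closest to *Kdm1a* (0.259), *Rock1* (0.275) and *Stx2* (0.277). *Cdkn1c* was closest to *Fgl2* (0.834), *Cebpb* (0.849) and *Klf9* (0.878), and *H19* to *Slc41a2* (0.808), *Angptl2* (0.877) and *Tppp3* (0.910). The values were not scaled to the spread of each gene, so the differences do not rank the genes by closeness of fit.

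Over all 21 neighbors listed for these clusters, 19 were tested, of which 7 were higher in EVP than in D and 2, *Kcnq1* and *Copg2*, were higher in D, with a median log2 fold change of 1.1 beside 0.46 over all tested genes. Of all tested genes, 11.6% passed with more in EVP and 7.46% with more in D. Between EVP and TA only *Kcnq1* passed, higher in TA, beside 3.5% of all tested genes (1.94% with more in TA). Between TA and D, 4 were higher in TA and 1 in D, beside 8.21% and 4.31% of all tested genes. Of 17 tested imprinted genes from other clusters, 4 were higher in EVP than in D and 2 were higher in D. This is beside the same 11.6% and 7.46% of all tested genes, and their median log2 fold change was 0.68. *Dcn*, which encodes the matrix proteoglycan decorin and is also 1 of the fibroblast markers, differed most, 708-fold (log2 fold change 9.51, adjusted p = 5.31e-11, limma). *Peg13*, a noncoding RNA, was 3.39-fold higher in D (adjusted p = 0.0127). *Sfmbt2* and *Rasgrf1* passed as well (adjusted p = 0.0319 and 0.0317), with overlapping libraries and their highest values, 467 and 119, in EVP replicate 1.

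Among 14 genes that set or keep imprints, 1 was higher in EVP than in D and 2 were higher in D, with a median log2 fold change of 0.17. Of the genes tested, 19% passed (11.6% with more in EVP, 7.46% with more in D), and the median over all of them was 0.46, so the share of this list that passed was near that of the whole table. *Dnmt3l*, a cofactor of the enzymes that methylate DNA in germ cells, was at 165, 123, 148, 165 and 208 normalized counts in EVP and at 19.2, 0, 0.782, 3.0 and 2.42 in D. No library overlapped, and the log2 fold change was 5.54 ± 0.64 (adjusted p = 4.71e-06, limma). *Zfp57*, a zinc finger protein that protects methylated imprints, was at 91.3, 136, 312, 84.7 and 188 in EVP and at 538, 1527, 1813, 640.1 and 831 in D. It was 6.59-fold higher in D, again without overlap (log2 fold change -2.72 ± 0.46, adjusted p = 2.77e-04). *Tet3*, which oxidizes methylated cytosine, was 1.83-fold higher in D (adjusted p = 0.0255). Between TA and D, *Dnmt3l* was higher in TA (adjusted p = 1.93e-04) and *Zfp57* higher in D (adjusted p = 0.0230). No gene of this list passed between EVP and TA, where 3.5% of all tested genes passed. *Dnmt1*, *Uhrf1*, *Trim28* and *Ctcf* passed in none of the 3 comparisons.

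**Figure D4:**
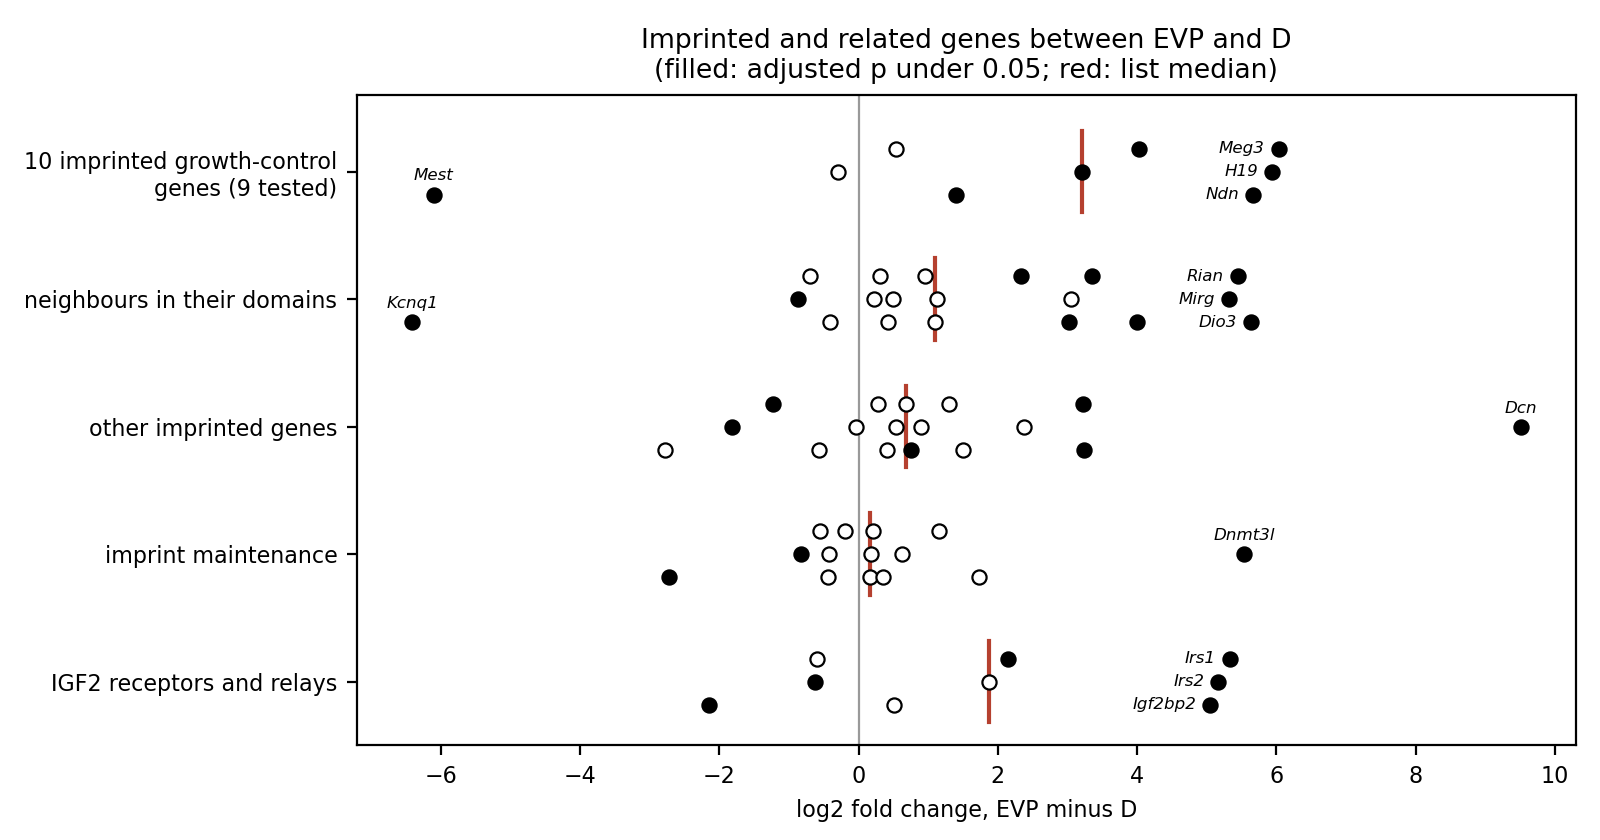
Log2 fold changes between EVP and D (limma, 5 libraries per population) of the 9 tested imprinted growth-control genes, neighbors in their clusters, other imprinted genes, genes of imprint maintenance, and IGF2 receptors and relays, with filled points for an adjusted p under 0.05 and list medians in red. The median is 3.21 for the first list and 0.17 for imprint maintenance, and *Mest* (-6.10) and *Kcnq1* (-6.41) lie farthest to the left.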

How the data were processed

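RNA of 15 libraries, 5 each of EVP, TA and D cells, was prepared by the authors with a modified Smart-Seq2 protocol, which does not keep strand. Per the study's methods and processing notes, reads were aligned with STAR 2.5.3a to GRCm38 (mm10), counted per Ensembl gene with HTSeq-count, whose strand setting is not given in the sources used here, and normalized with DESeq2 1.10.1. The deposited table of normalized counts holds signal values, read counts that the authors divided by 1 size factor per library. All values (100%) were whole multiples of the smallest value of their library (tolerance 1e-06), so whole reads were recovered. The authors' tables of fold changes and p-values were not used.

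Genes averaging at least 5 normalized counts (25549) were compared as log2(normalized count + 1) with limma 3.58.1 in R 4.3.3 (trend, 1 coefficient per population, two-sided), with Benjamini-Hochberg adjustment over all of them. Folds are ratios of mean normalized counts, while log2 fold changes are on the log2(value + 1) scale, and values after ± are SDs for means and SEs for log2 fold changes. Adjusted p-values are from limma unless edgeR 4.0.16 or DESeq2 1.42.0, run on whole reads, is named. Exon overlaps and lengths came from GENCODE gene models of GRCm38, whose coordinates matched those in the table for all 10 genes. All 10 genes are named, with most of the listed genes of their clusters, and the 3 genes most like each. Of each other list, up to 4 genes past the threshold by size of log2 fold change are named, and some that did not pass. The listed cluster genes *Phlda2*, *Ascl2*, *Ins2*, *Klf14*, *Magel2* and *Snurf* are counted but not described. The genes and lists were chosen with earlier results of these data known. The methods were tested on simulated data. Alternatives covered pseudocount, filter, scaling, array weights, samples in the fit, a replicate block, edgeR, DESeq2 and leaving out libraries.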

Additional observations from a re-analysis of the deposited data

Results flagged for a closer look

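*Peg3* in D replicate 4 was at 285 normalized counts, far from the other 4 D libraries, which lay between 113 and 144. On the log2(value + 1) scale, its gap to the nearest library was 0.738 of the range of the population, over the critical value of Dixon's test for 5 values (0.71). Of 27 groups of 5 libraries examined in this way it was the only such value, and chance gives about 1 in 20. Without D replicate 4 the log2 fold change of *Peg3* between EVP and D was 1.63 (adjusted p = 0.0125, limma).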

How the results depend on the processing

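The calls between EVP and D of *Cdkn1c*, *H19*, *Meg3*, *Mest*, *Plagl1* and *Ndn* kept direction and threshold under all 27 alternatives, and *Peg3* kept its direction but lost the threshold in 6. With array weights, 7609 genes passed between EVP and D and 5054 between TA and D, beside 4859 and 3199. Between EVP and TA, 893 genes passed, 1900 with DESeq2, and 428 to 1209 with libraries left out (428 without EVP replicate 2, 471 without EVP replicate 3, 568 without TA replicate 3 and 522 without replicate 1 of every population). Of the imprinted growth-control genes, 4 passed there, 2 with array weights or edgeR, and 2 to 5 with libraries left out (2 without EVP replicate 2, 3 or 4, TA replicate 3 or replicate 1 of every population). *Dlk1* between EVP and D turned from 0.54 to -0.45 (quantile normalization) and -0.14 (without EVP replicate 5, range -0.14 to 1.1 over single libraries left out), and *Peg3* between TA and D from -0.24 to 0.0010 (without TA replicate 3, range -0.38 to 0.0010), none of them past the threshold. The causes were not tested.

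Quantile normalization moved the median log2 fold change of all genes between EVP and D from 0.46 to -0.07 and the split of calls from 2952 higher in EVP and 1907 higher in D to 1920 and 1977. Between TA and D it moved the split from 2098 and 1101 to 1222 and 961. With the same total per library, the split between EVP and TA moved from 398 and 495 to 240 and 716. The numbers were not taken as pairs, since the study's methods state no pairing. The deviations of same-numbered libraries had correlations of -0.14 to 0.69. Numbers 1, 2, 4 and 5 correlated best with their own number in every pair and number 3 in none, a hint from the data and not from the design. With a replicate block, 5710, 1262 and 4047 genes and 7, 4 and 7 of the imprinted growth-control genes passed in the comparisons of EVP with D, of EVP with TA and of TA with D. The gene gained with the block was *Dlk1* between TA and D (adjusted p = 0.0316, beside 0.126). Depth limits *Dio3* in D and other values near 3 reads, and the exon bases shared with another gene model limit *Igf2*. If strand was ignored in counting, shared bases also limit the levels of *Cdkn1c*, *Mest* and, over a smaller part, *Meg3*.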
